A study of Homo sapiens with 2 samples.

Results

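A set of 10 genes of T-cell receptor signalling were examined for contacts with NUDT21: the receptor-associated chains CD3D, CD3E, CD3G and CD247, the kinases LCK and ZAP70, the phosphatase PTPRC, the costimulatory receptor CD28, the adaptor LAT and the phospholipase PLCG1. A NUDT21 eCLIP peak was given to a gene when its midpoint lay in the gene body of GENCODE release 44. By this rule 15 of the 20499 deposited peaks, of which 18659 lay in protein-coding genes, fell in 5 of the 10 genes. PTPRC held 8, CD3E 3, PLCG1 2, and CD247 and ZAP70 1 each, whereas CD3D, CD3G, LCK, CD28 and LAT held none.

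The study mapped NUDT21 on RNA to ask whether the protein acts directly on the 3' ends of transcripts in T-cell acute lymphoblastic leukemia. Both libraries came from J-Gamma1, an established line derived from Jurkat leukemia cells and deficient in PLCG1, and 1 was made with NUDT21 antibody and 1 from input. Cells of both groups were crosslinked with 2 irradiations at 254 nm (400 mJ each) and their lysates digested with 40 U of RNase I for 5 min. Only the peaks of the antibody library were analysed, and the input library was not analysed here. Each group was a single library, which allowed no test between them, and the line is 1 leukemic clone with impaired receptor signalling, not a normal T cell.

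NUDT21 is the RNA-binding subunit of cleavage factor I, which recognises UGUA in pre-mRNA upstream of cleavage sites and takes part in the choice among alternative polyadenylation sites. When a T-cell receptor meets its antigen, LCK phosphorylates the tails of the CD3 chains and of CD247 (the zeta chain), ZAP70 docks there and phosphorylates LAT, and PLCG1 is recruited to cleave a membrane lipid into calcium- and diacylglycerol-linked messengers. PTPRC (CD45) keeps LCK in an activatable state by removing an inhibitory phosphate, and CD28 adds the costimulatory signal.

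The 2 UGUA sites that lay within a peak of these genes on the gene strand (hg38) are shown first, since UGUA is the element that NUDT21 is known to bind. Capitals mark UGUA in each 30-nt window of RNA written 5' to 3'.
CD3E, 3'UTR, chr11:118316072-118316101, plus strand: acccccccuccacUGUAggccacuggaugg
PTPRC, intron after exon 29, chr1:198750617-198750646, plus strand: uggagaccagguuUGUAcuuuugaggauuu

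Shown next are the densest 30-nt windows of UGUA in the 3'UTRs of PTPRC and LCK, each with 3 copies in capitals. Neither window was under a peak, and LCK had no peak in its gene body.
PTPRC, 3'UTR, chr1:198756418-198756447, plus strand: uuUGUAaucguuaugugUGUAuaUGUAugu
LCK, 3'UTR, chr1:32285904-32285933, plus strand: cuUGUAcaugUGUAgccugugcaUGUAugu

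The share of the 10 genes with a peak was 50% (exact Clopper-Pearson 95% interval 18.7 to 81.3, counting error only), beside 33.4% of all 19396 protein-coding genes. A peak with its midpoint in an exon was held by 4 of the 10 genes, 40.0% (12.2 to 73.8), beside 22.6% of all. A 3'UTR peak, counting the 3'UTR of any transcript, was held by 3, 30% (6.67 to 65.2), beside 14.1% of all. The background lay inside each of these intervals, so 10 genes could not show a difference from it at this size. Peak bearing went with gene length in the list as a whole: the median gene body was 26887 nt over all protein-coding genes and 47800.5 nt over those with a peak. Among the 10 genes the median was 59842 nt for the 5 with a peak and 10818 nt for the 5 without, and the part of length in the count was not tested.

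Each peak carried a Score, whose unit is not stated by the authors. Its values were whole multiples of 0.228, called steps here, and the median over all peaks was 3 steps. Of the 15 peaks, 14 stood at 5 or more steps, 93.3% (68.1 to 99.8), beside 45.2% of the 18659 peaks in protein-coding genes. Those 14 lay in 4 of the 10 genes, with 8 of them in PTPRC, and 14.4% of all protein-coding genes held such a peak. Peaks of 1 gene are not independent, so the interval may be too narrow. The 2 sets also differ in region, with 13.3% of the 15 peaks and 39.6% of the 18659 in introns. Scores were not compared within a region. The median was 9 steps (interval of the median 7 to 12, range 1 to 19), and PTPRC alone supplied 8 of the 15 values. Fold enrichment over the local background, the authors' ratio, had a median of 2.52 (2.26 to 3.13) with a range of 1.17 to 4.54, beside 1.61 for all peaks in protein-coding genes. Its commonest value in the list was 1.17 at 1 step and 1.39 at 2. It therefore cannot be read as a plain multiple of signal over background. The false discovery rate (FDR) of 14 of the 15 peaks was 1, and the lowest was 0.392, so none of them passed an FDR of 0.05. Read totals were not in the list, and how many reads a step stands for was not determined here.

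**Figure D1:**
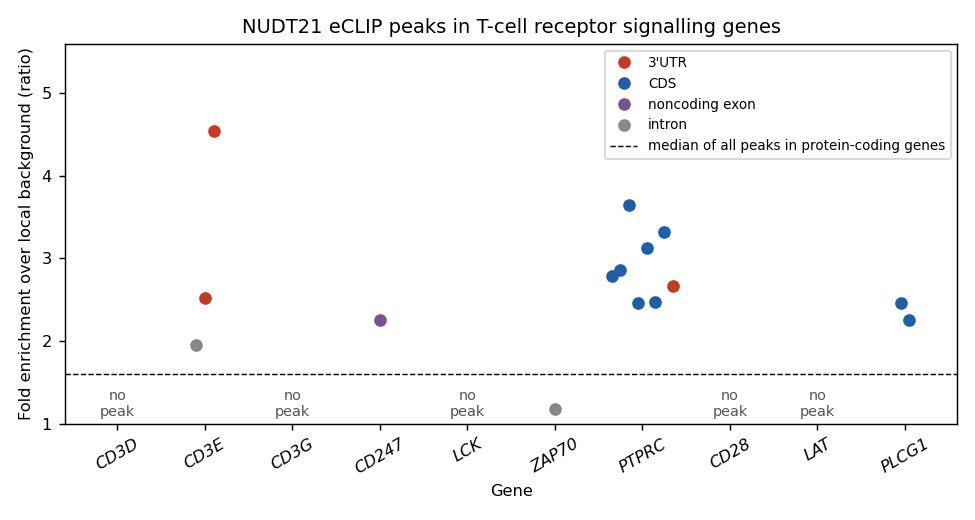
Fold enrichment over local background (ratio, y axis) of each NUDT21 eCLIP peak in the 10 genes (x axis), 1 point per peak from 1 library, in the order of position in each gene from left to right within CD3E, PTPRC and PLCG1. Colours give the region of the peak midpoint with nonsense-mediated decay transcripts left out, the dashed line the median of 1.61 over all peaks in protein-coding genes. All points except that of ZAP70, at 1.17, lie above the line, and the highest is the last peak of CD3E at 4.54.

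**Figure D2:**
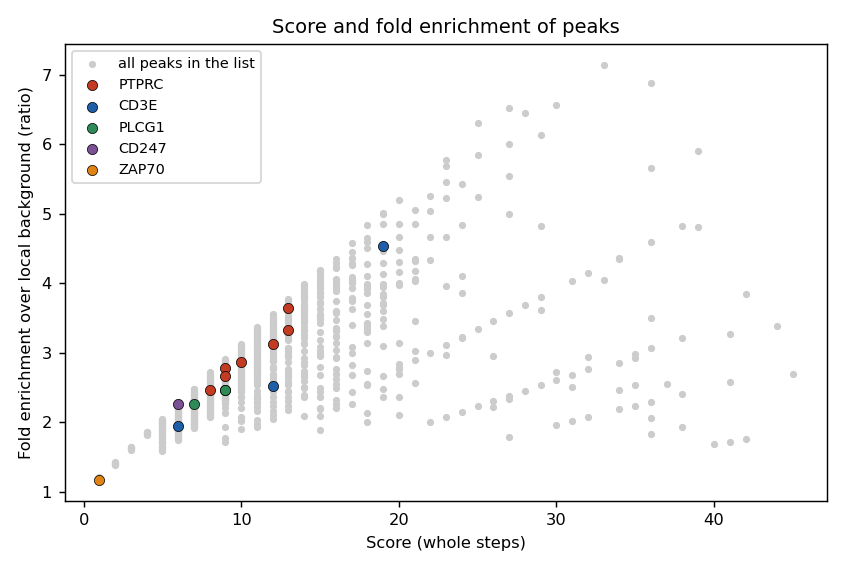
Score in whole steps (x axis) against fold enrichment over local background (ratio, y axis) for every peak of the list (grey) and for the 15 peaks in the 10 genes (coloured by gene). A PTPRC peak lies under a PLCG1 peak at 9 steps and 2.46. The ZAP70 peak sits at the lowest Score of the list, a value held by many other peaks. The last CD3E peak, at 19 steps, is the highest of the 15.

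CD3E, which encodes the epsilon chain of the receptor complex, had the peak of highest Score and fold enrichment among the 10 genes. The gene runs on the plus strand at chr11:118304730-118316175, with 9 exons in its canonical transcript. An intronic peak of 70 nt at chr11:118310942-118311011 stood at 6 steps and a fold enrichment of 1.95. A peak of 92 nt at chr11:118315631-118315722 in the 3'UTR, starting 89 nt after the stop codon, stood at 12 steps and 2.52. The last peak, of 226 nt at chr11:118315928-118316153, reached 19 steps and 4.54 with an FDR of 0.392, and ended 20 nt before the annotated end of the canonical transcript. The pair of 3'UTR peaks covered 318 nt, 50.4% of the 631-nt 3'UTR.

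The CD3E 3'UTR held 4 copies of UGUA, of which 1, shown above, lay in the last peak, 88 nt before the end of the transcript. Another 2 lay in the 205 nt between the pair of 3'UTR peaks, and 1 began 6 nt past the last peak. The only AAUAAA of this 3'UTR, the hexamer that marks a cleavage site downstream, began in the final 2 bases of the last peak and ended 16 nt before the transcript end. That window is printed with AAUAAA in capitals.
CD3E, 3'UTR, chr11:118316140-118316169, plus strand: gagagagaaaaaAAUAAAcuguauuuggcu

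The intronic CD3E peak, printed whole because it lay away from any annotated exon (1177 nt from its midpoint to the nearest exon edge), held no UGUA on either strand.
CD3E, intron, chr11:118310942-118311011, plus strand: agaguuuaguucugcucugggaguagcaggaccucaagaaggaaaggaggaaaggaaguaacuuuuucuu

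CD3D and CD3G encode the delta and gamma chains that pair with CD3E, and all 3 genes sit together on chromosome 11. The cluster spans 50432 nt and contained 3 peaks, each of them in CD3E. The canonical 3'UTR of CD3D is short, 87 nt with 1 UGUA, while that of CD3G is 2061 nt long with 14 copies of UGUA (6.79 per kb) and 6 AAUAAA. CD3G thus had more UGUA in its 3'UTR than CD3E (6.34 per kb) without a peak in the list.

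CD247, the zeta chain with several phosphorylation motifs, had 1 peak of 276 nt at chr1:167440466-167440741 on the gene's minus strand, at 6 steps and a fold enrichment of 2.26. It covered 78 nt of canonical exon 2, the codons 29 to 54 of 164, and 198 nt outside that exon. Its midpoint lay in a noncoding exon of a transcript annotated with a retained intron. The peak held no UGUA, and none of the 8 copies in the 1041-nt 3'UTR was under a peak. A further peak of 7 steps (fold enrichment 2.45) lay at chr1:167424570-167424653, inside POU2F1 on the plus strand. It was 416 nt past the annotated end of the gene, but 6029 nt from the end of the canonical CD247 transcript. The list gives no strand, so the gene this peak came from cannot be told apart.

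PTPRC held more peaks than the other 9 genes together, and every one of them lay in the last part of the gene. PTPRC runs on the plus strand at chr1:198638457-198757476, a body of 119020 nt, and its canonical transcript has 33 exons, of which 32 are coding. The first peak began 105628 nt from the gene start, and all 8 fell within 13185 nt. In the spliced transcript, 54.3% of the length lay before the midpoint of the first peak, and exons 1 to 25 and exon 27 contained no peak. The list held 453 protein-coding genes with 8 or more peaks and 239 with 8 or more exonic peaks, so the number of peaks in PTPRC was not confined to it.

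In order along PTPRC, the first peak covered 75 nt of exon 26 (chr1:198744085-198744159) at 9 steps and a fold enrichment of 2.78. The next covered 76 nt of exon 28 (chr1:198749443-198749518) at 10 steps and 2.86. Exon 29 had a peak of 147 nt (chr1:198750500-198750646) at 13 steps and 3.65, the highest of the gene, with 20 nt in the following intron. These exons encode cytoplasmic sequence, where the tandem phosphatase domains of CD45 lie. Exon 30 had a peak of 66 nt (chr1:198752262-198752327) at 9 steps and 2.46. Exon 31 had one of 113 nt (chr1:198752628-198752740) at 12 steps and 3.13. In exon 32 a peak of 48 nt (chr1:198754375-198754422), at 8 steps and 2.47, placed 18 nt in the intron. Over all 8 peaks of the gene the Score ranged between 8 and 13 steps, and the median fold enrichment was 2.82.

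The last exon of PTPRC held the remaining peaks. A peak of 197 nt (chr1:198756014-198756210) at 13 steps and 3.32 spanned the stop codon, with 29 nt in the 3'UTR. A peak of 125 nt (chr1:198757145-198757269) at 9 steps and 2.67 lay in the 3'UTR. The 7 peaks before it covered codons between 910 and 1307 of a reading frame that encodes 1306 residues, the stop codon included.

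**Figure D3:**
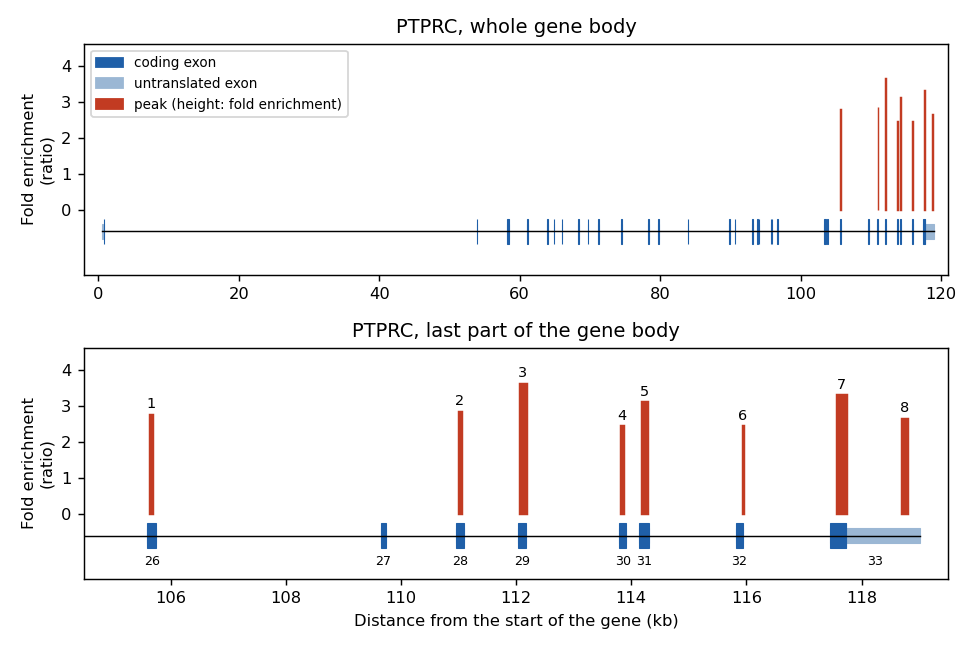
Map of PTPRC with distance from the gene start (kb, x axis) and fold enrichment over local background (ratio, y axis), as the whole gene body above and its last part below. Blue boxes are coding exons of the canonical transcript, light boxes untranslated exon, numbers below them exon numbers, and red bars the 8 peaks of 1 library at their width and fold enrichment. The peaks stand over exons 26 and 28 to 33 and none stands over the exons before them.

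Whether these PTPRC peaks count as 3'UTR or as coding sequence (CDS) depended on 1 transcript. In all transcripts together the 3'UTR took precedence, and the first 7 peaks were 3'UTR peaks only through a transcript annotated as a target of nonsense-mediated decay (NMD), whose early stop codon turns the exons behind it into 3'UTR. The later of the PLCG1 peaks was 3'UTR by the same kind of transcript. With all transcripts, 11 of the 15 peaks were in 3'UTRs, 73.3% (44.9 to 92.2), beside 30.02% of peaks in protein-coding genes, and 1 was in CDS, 6.67% (0.169 to 31.9), beside 23.3%. Without NMD transcripts, a setting chosen after the data had been seen, 3 were in 3'UTRs, 20% (4.33 to 48.1), beside 21.0%, and 9 in CDS, 60.0% (32.3 to 83.7), beside 31.6%. The 3 peaks left in 3'UTRs were the pair in CD3E and the last of PTPRC. Introns held 2 peaks, 13.3% (1.66 to 40.5), beside 39.6%.

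UGUA and peaks did not coincide in the PTPRC 3'UTR. Peaks covered only 154 of the 1295 nt of this 3'UTR, so an absence of overlap carries little weight. Of its 14 copies of UGUA, none was under a peak. In the 934 nt between the stop-codon peak and the 3'UTR peak lay 13 of them, 13.9 per kb, including the 3 printed above, and the remaining 1 began 46 nt after the 3'UTR peak. This 3'UTR also held 6 AAUAAA, of which 1 lay in the last peak, 223 nt before the transcript end, and the final one ended 16 nt before it. The window in the peak is printed with AAUAAA in capitals.
PTPRC, 3'UTR, chr1:198757236-198757265, plus strand: gucgcuaaucauAAUAAAauucaaccauua

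**Figure D4:**
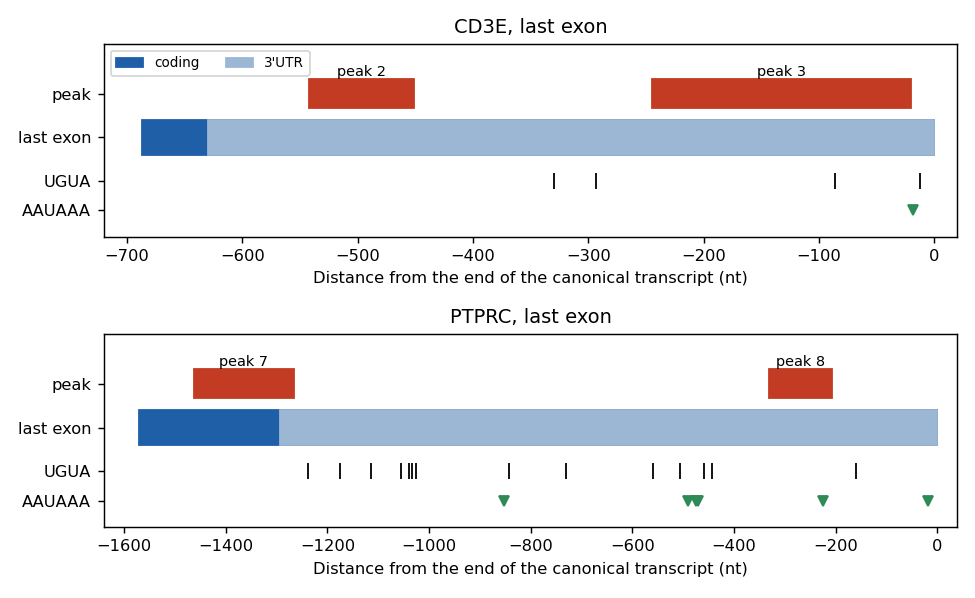
Last exons of CD3E (above) and PTPRC (below), with distance from the end of the canonical transcript in nt on the x axis. Red boxes are peaks of 1 library, dark blue coding sequence, light blue 3'UTR, black ticks UGUA and green triangles AAUAAA on the gene strand. In CD3E 1 of 4 UGUA ticks lies under a peak, and in PTPRC, where peaks cover 154 nt of the 3'UTR, none of 14 does.

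PLCG1, the phospholipase that J-Gamma1 cells are deficient in, had 2 peaks. The list cannot show whether the PLCG1 transcripts in these cells are intact. The gene runs on the plus strand at chr20:41136960-41196801. A peak of 85 nt (chr20:41165308-41165392) at 9 steps and a fold enrichment of 2.46 covered the last 60 nt of exon 14, codons 484 to 503, and 25 nt of the intron behind it. A peak of 56 nt (chr20:41172561-41172616) at 7 steps and 2.26 lay within exon 26, codons 1016 to 1034. The spliced PLCG1 transcript held 22 copies of UGUA, 14 of them in its 3117-nt 3'UTR, and none was in a peak. The peak across the splice donor is printed with exon bases in capitals.
PLCG1, exon 14 and intron, chr20:41165308-41165392, plus strand: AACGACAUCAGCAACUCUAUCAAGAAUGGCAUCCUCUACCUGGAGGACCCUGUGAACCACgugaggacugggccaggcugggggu

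ZAP70, the kinase that docks on the phosphorylated chains, had the peak of lowest Score among the 15. It measured 285 nt (chr2:97724935-97725219, plus strand) and stood at 1 step and a fold enrichment of 1.17. These are the lowest values of the whole list, held by 7039 of its 20499 peaks. Its midpoint was intronic, with 157 nt in the intron and 128 nt in exon 4, codons 135 to 177 of 619, so it crossed the splice acceptor. The 362-nt 3'UTR of ZAP70 contained no UGUA. The peak is printed with exon bases in capitals.
ZAP70, intron and exon 4, chr2:97724935-97725219, plus strand: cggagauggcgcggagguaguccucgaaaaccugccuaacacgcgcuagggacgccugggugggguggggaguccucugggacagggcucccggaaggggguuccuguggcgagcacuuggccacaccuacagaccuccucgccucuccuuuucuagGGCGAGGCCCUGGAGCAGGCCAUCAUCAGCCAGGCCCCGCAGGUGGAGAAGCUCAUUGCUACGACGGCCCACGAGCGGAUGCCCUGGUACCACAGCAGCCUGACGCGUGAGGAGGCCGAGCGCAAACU

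LCK, which starts the phosphorylation cascade, had no peak although its 3'UTR was the richest in UGUA of the 10 genes, with 7 copies in 449 nt (15.6 per kb). CD28 had the longest 3'UTR, 4000 nt with 20 copies (5.00 per kb), and LAT 2 copies in 603 nt (3.32 per kb), and neither had a peak. The absence of a peak says only that none was listed for this library, since a peak needs RNA as well as contact, and the level of these RNAs was not measured here.

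UGUA, the element that NUDT21 is known to bind, was found in few of the 15 peaks. It occurred on the gene strand in 2 of them, 13.3% (1.66 to 40.5), beside 44.5% of the 17893 peaks whose genes lie on 1 strand only. The peaks of the 10 genes were shorter, with a median of 92 nt beside 146 nt, and shorter peaks hold fewer motifs of any kind. Per length, UGUA stood at 1.03 per kb in them and at 4.29 per kb in all. On the opposite strand the same 15 peaks held 5 copies, 2.58 per kb, in 3 peaks. Among peaks of 5 or more steps in 3'UTRs or CDS without NMD transcripts, the 12 peaks of these genes had 1.53 per kb and all 6841 had 3.51 per kb. In this class 16.7% of the 12 peaks held UGUA, beside 24.9% of the 6841, a smaller gap than over all peaks. Here the peaks of these genes were not the shorter ones, with a median of 88.5 nt beside 76 nt. A count of 2 is small, and with 50 nt added on each side of the peaks the share with UGUA came to 53.3% (26.6 to 78.7), beside 60.02% of the 17893 peaks extended in the same way. A whole AAUAAA lay in 1 of the 15 peaks, 6.67% (0.169 to 31.9), beside 10.1% of the 17893. The last 50 nt of the canonical transcript held AAUAAA in 9 of the 10 genes, all but PLCG1, and in 64.7% of all protein-coding genes. PLCG1 had AUUAAA there, which the authors also list as a polyadenylation signal, ending 13 nt before the transcript end.

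The peaks that lay in canonical exons had a median midpoint at 63.4% of the spliced length (range 22.4 to 94.98, 12 peaks), beside 41.4% for 9308 peaks of all genes. PTPRC supplied 8 of those 12, and they share 1 transcript. The CD3E pair lay at 63.5% and 90.2%, and the PLCG1 peaks at 22.4% and 44.7%. The last exon held 4 of the 12, 33.3%, beside 42.8%. A peak reached beyond its canonical exon in 5 of 14 cases, 35.7%, beside 38.0%. No peak of the 10 genes overlapped another annotated gene. The content of U was 22.8% at the median, beside 25.9% in all.

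A wider list of 63 other genes of the pathway was then counted, of which 33 (52.4%) had a peak, beside the 33.4% of all protein-coding genes. A peak of 5 or more steps was found in 13 (20.6%, beside 14.4%) and a 3'UTR peak in any transcript in 14 (22.2%, beside 14.1%). By role, no peak was listed in the receptor constant chains TRAC, TRBC1 and TRBC2 or in the costimulatory or inhibitory receptors CTLA4, ICOS and PDCD1, and 1 of 6 coreceptor or adhesion genes had one. The constant chains are short, with gene bodies of 4651, 1675 and 1708 nt. Peaks were listed in 8 of 10 adaptors or exchange factors, 9 of 12 genes of the calcium and NFAT arm and 6 of 9 of the diacylglycerol and NF-kappaB arm. Of the 6 proximal kinases and phosphatases 3 had a peak, of the 8 genes of the Ras, MAP kinase and AP-1 arm 2, and of the 3 ubiquitin-linked regulators and the 3 genes of the phosphoinositide 3-kinase arm 2 each. No difference between roles was tested. Gene length moved with the presence of a peak, with a median body of 107629 nt for the 33 genes with a peak and 25089.5 nt for the 30 without, and 54 of their 113 peaks were intronic.

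**Figure D5:**
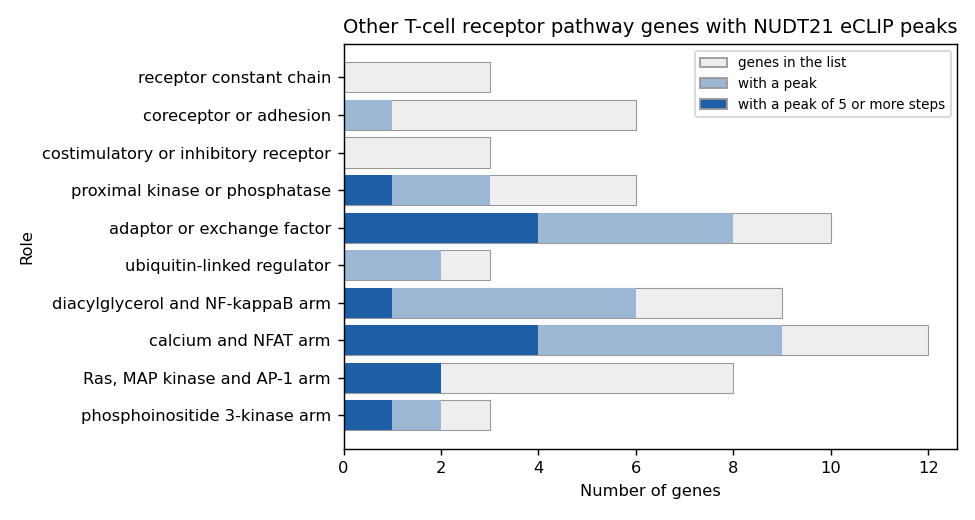
Number of genes (x axis) in each role of the T-cell receptor pathway list (y axis), for 63 genes outside the 10 described above. Grey bars give the genes in the list, light blue those with a peak and dark blue those with a peak of 5 or more steps in 1 library. Peaks are listed in 8 of 10 adaptors, 9 of 12 genes of the calcium and NFAT arm, 2 of 8 of the Ras, MAP kinase and AP-1 arm and none of the 3 receptor constant chains.

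High peaks of that wider list lay in genes for adaptors, calcium channels and enzymes of the pathway. GRB2, an adaptor that links receptors to Ras, reached 13 steps and a fold enrichment of 3.46 in its 3'UTR. FYB1, an adaptor of integrin activation, reached 11 steps and 2.94 in CDS. The calcium channel ITPR2 stood at 10 steps and 2.86 and its relative ITPR3 at 8 steps and 2.66, both in CDS. Further high peaks were those of PIK3R1 (8 steps, 2.60), PAG1 (8 steps, 2.57), PPP3CB (8 steps, 2.47) and LCP2 (7 steps, 2.48). None of those named exceeded the 19 steps of the last CD3E peak, and GRB2 equalled the 13 steps of the highest PTPRC peak.

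The label of the line was set beside marker genes. Of 12 T-cell markers 4 had a peak (CD3E, CD247, CD1A and RAG1), 33.3% beside 33.4% of all protein-coding genes, and CD3E and CD247 are among the 10 genes described here. Of 6 B-cell markers 1 had a peak, CD79B, at 1 step in an intron. The 6 myeloid, 4 erythroid and 4 natural killer markers had none. Peaks do not measure RNA levels, so the identity of the cells rests on the label.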

How the data were processed

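The authors cleaned the reads of their 1 replicate with fastp, collapsed duplicates by molecular identifier, removed ribosomal RNA, mapped to hg38 (the aligner is not given in the sources used here) and called peaks with MACS2, with local windows of 1000 and 10000 nt. Whether the input served as control is not stated. The deposited list gave, per peak, 1-based coordinates, a Score (a signal in whole steps of 0.228, inferred from its values), fold enrichment, a p-value and an FDR (q-value). Fold enrichment is named as a ratio to local background, but how it was formed is not stated. Its commonest value was 1.17 at 1 step, 1.39 at 2 and 1.82 at 4, so it did not grow in proportion to the Score. The stated q-value threshold was 0.05, yet only 19 deposited peaks had an FDR under 0.05.

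Peak midpoints were placed in GENCODE 44 over all transcripts, 3'UTR first, then 5'UTR, CDS, noncoding exons and introns. UGUA and AAUAAA were counted in the hg38 reference on the gene strand, and UGUA also on the opposite strand. Peaks without strand are given to genes by position alone. Intervals are exact Clopper-Pearson at 95% and cover counting error only. They take peaks as independent, although peaks of 1 gene share its transcripts, and no difference was tested with them. Scripts (Python 3.11.15, scipy 1.17.1, pysam 0.24.0) were tested on positions in known parts of real genes and on simulated sequences and Scores. Those genes had a single transcript each, so the precedence between transcripts was not tested. The 10 genes were all named, with the 10 pathway genes of highest Score (ties by fold enrichment), of which 2 are not reported here. Members and lists were chosen with earlier results of these data known.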

Additional observations from a re-analysis of the deposited data

How the results depend on the processing

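No paired analysis was possible because only 1 library had a file. Of 42 values recomputed under alternatives, 32 stayed within 1.5 times their count or within their interval and 10 moved. With peaks limited to an FDR under 0.05, 0 of the 10 genes and 0 peaks were left, and no share could be given. The 3'UTR share became 20% and the CDS share 60.0% in each of 3 settings: CDS in precedence, 1 canonical transcript per gene, and NMD transcripts left out (the last chosen after the data had been seen). These moves follow from how the 7 PTPRC peaks and 1 PLCG1 peak are classed. A fold enrichment of at least 2 left an intron share of 0.0%. With peaks extended by 50 nt the UGUA share was 53.3%, beside 60.02% of all peaks extended in the same way. The extension lengthens the sequence searched, and the part of length in this move was not tested. The number of genes with a peak was 4 at 5 or more steps and 4 at a fold enrichment of at least 2, with ZAP70 lost in both. Merging peaks within 100 nt, any overlap with the gene body and extension of the gene body by 1000 nt left 5 genes with a peak, and the last gave 16 peaks. The sequencing depth of the library is unknown, and without a replicate no peak has a measure of its reproducibility.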
